A study of Homo sapiens with 11 samples.

Results

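GDF15 and 7 genes of interleukin-6 (IL6) family signalling were followed through the 4 groups of a KAT6A inhibitor experiment in HEC50B endometrial cancer cells. The genes were selected by symbol from the gene rows of the count table. They are the cytokines GDF15 (ENSG00000130513), IL11 and LIF, the receptor chains IL6ST, LIFR, OSMR and IL11RA, and the feedback inhibitor SOCS3. They make up 8 of the 57736 gene rows in the table, and 7 of the 8 passed the filter on low counts. LIF did not pass it. GDF15 and IL11 had been singled out in an earlier analysis of these libraries for low levels with the inhibitor. The comparisons of inhibitor with vehicle are therefore given for all 8 genes as a description, with no test. The comparisons between the genotypes were tested. They share libraries with the inhibitor comparisons and are not a separate experiment.

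The study sequenced RNA from cells that differ in PPP2R1A and in exposure to a KAT6A inhibitor. PPP2R1A encodes a scaffold for the PP2A phosphatase, and KAT6A is a histone acetyltransferase. R183W cells were the parental HEC50B line, which carries the PPP2R1A R183W substitution, and WT cells were the same line with that codon returned to wild type by CRISPR editing. Each line was kept for 4 days in vehicle or in 50 µM WM1119, which inhibits KAT6A. The libraries numbered 3 of R183W cells with vehicle, 2 of R183W cells with WM1119, 3 of WT cells with vehicle and 3 of WT cells with WM1119. How many edited clones stand behind the WT line is not stated in the labels, so genotype cannot be told apart from other differences between the lines. The labels do not say that the replicates were separate cultures. The p-values then measure only the spread between these libraries, which may be technical.

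Total counts per library ran from 2609922 to 6065149. A count of 3 corresponded to between 0.495 and 1.24 CPM (counts scaled to library size by TMM and given per 1000000). Library 3 of the WT cells with WM1119 had the lowest total, and its log2 CPM correlated with the other 2 libraries of its group at 0.917 and 0.937, against 0.957 to 0.975 for all other pairs within groups. Results that change without it are given both ways. The 8 epithelial markers summed to between 988 and 1876 CPM in every library. Their sum, mostly KRT18, ran from 1670 to 1876 in R183W cells with vehicle and from 988 to 1243 in WT cells with vehicle. Its part in the genotype differences was not tested. KRT19 and CDH1 did not pass the filter, with group means of at most 0.149 and 0.539 CPM. Of the 6 that did, edgeR called 3 higher in R183W cells with vehicle (KRT8, KRT18 and MUC1) and 2 lower (EPCAM and CLDN4). Of all genes, 6.82% were called higher there and 6.17% lower. With WM1119, 2 of the 6 were called higher in R183W cells and 1 in WT cells, and 0 lower. Of all genes, 1.99% and 2.33% were higher. CLDN3 rose by 3.54 log2 units in R183W cells (SE 0.35, edgeR adjusted p = 7.16e-05) and in WT cells (SE 0.30, edgeR adjusted p = 1.80e-05). EPCAM rose by 1.07 in R183W cells (SE 0.16, edgeR adjusted p = 0.00162). Of 5 endometrial lineage markers, PGR and SOX17 were at 0 in all 11 libraries, and ESR1 group means were at most 0.413 CPM. PAX8 group means lay between 380 and 498 CPM and those of FOXA2 between 40.4 and 143 CPM. FOXA2 was higher in R183W than in WT cells with vehicle (log2 difference 1.825, SE 0.15, edgeR adjusted p = 3.05e-06). With WM1119 its difference was 1.20 (SE 0.16, edgeR adjusted p = 0.000392). The leukocyte list summed to at most 11.2 CPM, with CD3E and LYZ at 0. The 6 fibroblast markers summed to between 653 and 1080 CPM, mostly COL1A1, with DCN at 0. COL1A2 group means were at most 0.254 CPM. Of the 4 tested, edgeR called COL1A1 higher in R183W than in WT cells with vehicle (0.44, SE 0.11, edgeR adjusted p = 0.0205). PDGFRB was lower there (-2.74, SE 0.34, edgeR adjusted p = 0.000132), at means of 5.82 against 38.5 CPM. With WM1119 edgeR called both lower in R183W cells, PDGFRB at a mean of 0.271 against 22.5 CPM. LUM and PDGFRA were not called between the lines.

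GDF15 is a secreted member of the TGF-beta superfamily that many stressed and malignant cells release, and its receptor GFRAL works with RET in the brainstem. IL6-family cytokines share the signalling chain IL6ST, also called gp130. IL11 binds IL11RA and LIF binds LIFR, each of which then engages IL6ST, while OSMR pairs with IL6ST to receive oncostatin M. The receptor complexes activate JAK kinases and chiefly STAT3, and STAT3 induces SOCS3, which shuts the receptor down. In the endometrium, LIF and IL11 are best known for their roles in implantation and decidualisation.

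Among the 7 members that passed the filter, GDF15 and IL11 had the largest differences between inhibitor and vehicle. The sequence upstream of each gene is therefore shown. Both come from RefSeq (GRCh38.p14) and run from 250 bases before the start to the base before it, 5′ to 3′ on the gene's own strand. GDF15 lies on chromosome 19 at chr19:18385908-18386157 (plus strand) and IL11 at chr19:55370464-55370713 (minus strand). Capitals mark matches to the motifs named after the sequences.
GDF15: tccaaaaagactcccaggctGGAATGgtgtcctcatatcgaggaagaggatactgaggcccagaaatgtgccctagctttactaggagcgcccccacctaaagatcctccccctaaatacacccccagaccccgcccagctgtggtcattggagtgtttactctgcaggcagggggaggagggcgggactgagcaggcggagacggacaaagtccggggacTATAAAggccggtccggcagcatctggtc
IL11: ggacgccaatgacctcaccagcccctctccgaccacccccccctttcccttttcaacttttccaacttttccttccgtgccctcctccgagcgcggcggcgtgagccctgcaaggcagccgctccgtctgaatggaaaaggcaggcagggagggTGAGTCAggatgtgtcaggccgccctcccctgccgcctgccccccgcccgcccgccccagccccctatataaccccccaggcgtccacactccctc

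The search covered both strands of windows from 250 bases before to 50 after each start, for 6 motifs. The AP-1 motif was searched as TGANTCA. For TEAD factors the letters were GGAATG. STAT factors were represented by TTCNNNGAA. The core of a cAMP response element was TGACG. A composite C/EBP-ATF site was searched as TGATGNAA. The TATA box was TATAAA. N stands for any base, and none of these motifs contains another. The GDF15 window held GGAATG at -230 and TATAAA at -29. The IL11 window held 1 match to the AP-1 motif, TGAGTCA, at -96. Of 35116 promoter windows of the same length, 7.71% held TGANTCA, 14.0% held GGAATG and 11.5% held TATAAA. Neither window held TTCNNNGAA, which was in 7.66% of windows. A match is a description of these letters and not a bound site. RefSeq windows were matched for 7 of the 8 genes.

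GDF15 was the most abundant of the 8 transcripts and was lower with WM1119 in both lines, and lower in R183W than in WT cells under either treatment. In R183W cells it measured 1141, 1111 and 1147 CPM with vehicle and 353 and 399 CPM with WM1119. In WT cells it measured 2007, 2084 and 2210 CPM with vehicle and 866, 814 and 860 CPM with WM1119. No library of any group overlapped another group, so the order of levels was WT with vehicle, R183W with vehicle, WT with WM1119 and R183W with WM1119. The means were 2100 ± 103 (SD, n = 3), 1133 ± 19.1 (n = 3), 847 ± 28.3 (n = 3) and 376 ± 32.7 CPM (n = 2). In these bulk samples, fewer cells expressing a gene and less RNA per cell cannot be told apart.

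The difference in GDF15 between WM1119 and vehicle was -1.59 on the log2 scale in R183W cells (SE 0.12, 95% interval -1.84 to -1.34), a 3.02-fold lower level. In WT cells it was -1.31 (SE 0.10, interval -1.53 to -1.10), or 2.48-fold lower. The genotype difference ran the same way under both treatments. With vehicle, GDF15 was lower in R183W than in WT cells by 0.89 log2 units (log2 difference -0.89, SE 0.10, edgeR adjusted p = 5.51e-05). With WM1119 it was lower by 1.17 (log2 difference -1.17, SE 0.12, edgeR adjusted p = 2.66e-05). Both genotype calls held in all 11 fits that left out 1 library each. The inhibitor difference itself was not shown to depend on genotype: the interaction was -0.28 (SE 0.15, interval -0.60 to 0.04, edgeR adjusted p = 0.615).

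IL11, a cytokine with roles in decidualisation and fibrosis, was scarce and was lower with WM1119 in both lines. R183W cells with vehicle gave 114, 101 and 131 counts, or 18.8, 21.6 and 26.6 CPM. R183W cells with WM1119 gave 6 and 3 counts, or 1.44 and 0.906 CPM. These 5 libraries did not overlap, and the lower of the WM1119 values stood at the 3-count floor. WT cells with vehicle gave 42, 67 and 76 counts, or 9.37, 12.8 and 14.3 CPM. WT cells with WM1119 gave 23, 10 and 3 counts, or 5.05, 2.57 and 1.24 CPM. The WT groups did not overlap either, but the WM1119 libraries of the 2 lines did.

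Pooled over libraries, IL11 in R183W cells was 22.1 CPM with vehicle (95% exact Poisson interval 19.8 to 24.5) and 1.20 CPM with WM1119 (0.550 to 2.28). In WT cells it was 12.3 CPM (10.6 to 14.2) and 3.31 CPM (2.32 to 4.59). These intervals cover counting error only. The fitted log2 difference between WM1119 and vehicle was -4.19 in R183W cells (SE 0.49, interval -5.25 to -3.13) and -1.93 in WT cells (SE 0.37, interval -2.72 to -1.14). In WT cells the difference ranged from -2.57 to -1.65 over the fits that left out 1 library each.

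The order of the lines for IL11 differed between treatments. With vehicle, R183W cells had the higher mean, 22.3 ± 3.93 against 12.1 ± 2.52 CPM (SD, n = 3 each), and the libraries did not overlap. The log2 difference was 0.87 (SE 0.31) and did not pass the threshold (edgeR adjusted p = 0.0782). With WM1119, R183W cells had the lower mean, 1.17 ± 0.377 (n = 2) against 2.95 ± 1.94 CPM (n = 3), a difference of -1.39 on the log2 scale (SE 0.57, edgeR adjusted p = 0.160). The interaction was -2.26 (SE 0.65, interval -3.65 to -0.87). Its unadjusted p in edgeR was 0.00365 and its adjusted p was 0.219. Without library 3 of the WT cells with WM1119 all 3 passed. The edgeR adjusted p was then 0.0174 for the vehicle comparison, 0.0330 for the WM1119 comparison and 0.0350 for an interaction of -2.56. The interaction is built from the inhibitor differences on which IL11 was singled out, and the other 2 comparisons share their libraries. Nothing is therefore read from the p-values of the interaction or from these passes.

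LIF, the cytokine whose uterine expression is needed for implantation in mice, was close to absent, with 26 counts over all 11 libraries. Single libraries held between 0 and 8 counts, at most 1.51 CPM. R183W cells had 12 counts with vehicle and 1 with WM1119, a depth-scaled ratio of 0.175 with an exact 95% counting interval of 0.00408 to 1.18. WT cells had 10 and 3 counts, a ratio of 0.415 with an interval of 0.0734 to 1.61. Counts were fewer with WM1119 in both lines. The intervals cover counting error only and both include 1, so these counts do not settle whether LIF differed.

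**Figure D1:**
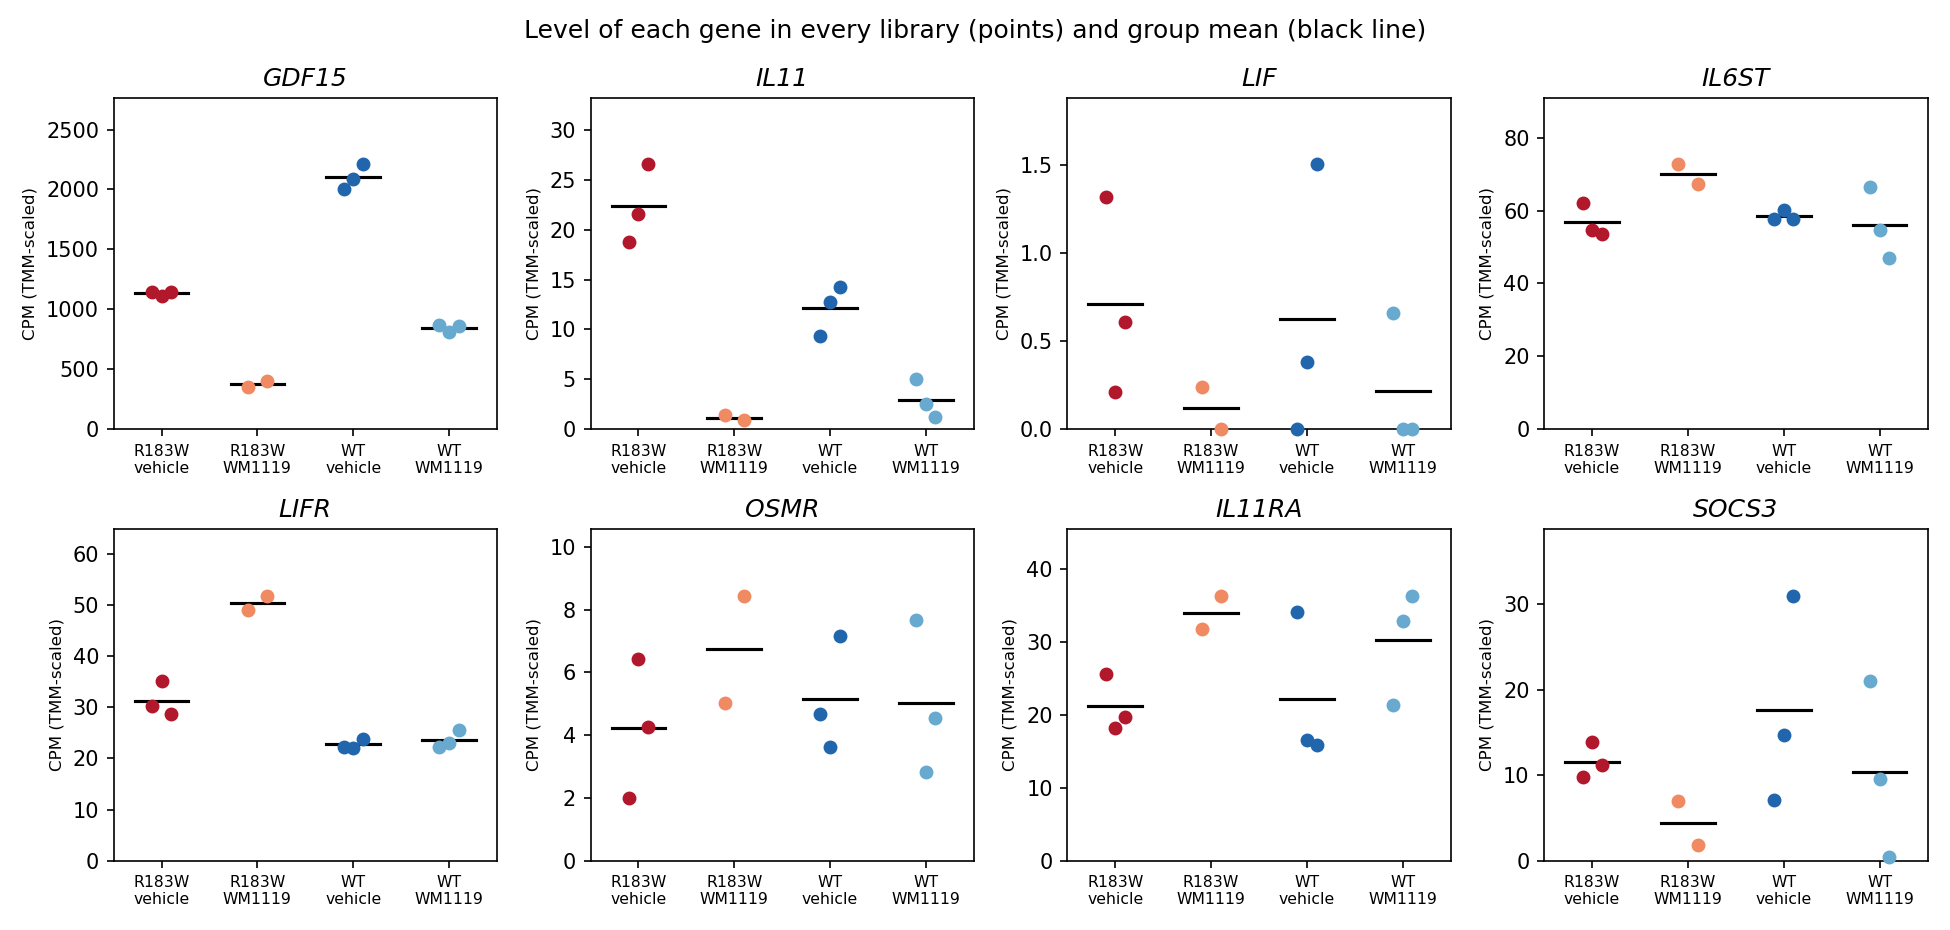
Level of each gene in CPM (vertical axis, from 0, own scale in each panel) in the 4 groups. Points are libraries and black lines are group means. GDF15 separates all 4 groups, at 2007 CPM or more in WT cells with vehicle and at 399 CPM or less in R183W cells with WM1119, while SOCS3 runs from 0.413 to 21.1 CPM within the WT cells with WM1119.

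The shared chain IL6ST was the most even of the receptor genes, and no comparison between the lines passed the threshold. It measured 62.0, 54.8 and 53.5 CPM in R183W cells with vehicle and 72.7 and 67.4 CPM with WM1119. WT cells gave 57.6, 60.2 and 57.8 CPM with vehicle and 66.3, 54.7 and 47.1 CPM with WM1119. The R183W libraries with WM1119 lay above all 9 others, and the other 3 groups overlapped. The log2 difference between inhibitor and vehicle was 0.30 in R183W cells (interval -0.05 to 0.65) and -0.05 in WT cells (interval -0.37 to 0.26). Between the lines it was -0.04 with vehicle (edgeR adjusted p = 0.884) and 0.31 with WM1119 (edgeR adjusted p = 0.271).

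LIFR, the LIF receptor chain, was highest in R183W cells with WM1119 and differed between the lines there. R183W cells gave 30.2, 35.1 and 28.8 CPM with vehicle and 49.2 and 51.9 CPM with WM1119. WT cells gave 22.3, 22.1 and 23.9 CPM with vehicle and 22.2, 23.1 and 25.6 CPM with WM1119. Every R183W library lay above every WT library, and the 2 WT groups overlapped. With WM1119, LIFR was higher in R183W than in WT cells by 1.10 log2 units (SE 0.17, edgeR adjusted p = 0.00135), and the call held in all 11 fits that left out 1 library.

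With vehicle the LIFR genotype difference was 0.46 (SE 0.16, edgeR adjusted p = 0.0678). Without library 3 of the WT cells with WM1119 it was 0.47 and passed (edgeR adjusted p = 0.0328). The inhibitor difference was 0.69 in R183W cells (SE 0.17, interval 0.33 to 1.05) and 0.05 in WT cells (SE 0.16, interval -0.30 to 0.39). The interaction was 0.64 (SE 0.23) and did not pass (edgeR adjusted p = 0.381).

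OSMR, the oncostatin M receptor chain, was low and its groups overlapped throughout. It ran from 1.98 to 6.42 CPM in R183W cells with vehicle, from 5.04 to 8.46 with WM1119, from 3.62 to 7.15 in WT cells with vehicle and from 2.83 to 7.69 with WM1119. The genotype differences were -0.31 with vehicle (SE 0.48, edgeR adjusted p = 0.720) and 0.39 with WM1119 (SE 0.54, edgeR adjusted p = 0.714). Intervals as wide as -1.34 to 0.72 leave differences of more than 1 log2 unit within the error.

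IL11RA, the receptor chain specific to IL11, had its higher means with WM1119, and no comparison between the lines was called. R183W cells gave 25.6, 18.2 and 19.7 CPM with vehicle and 31.7 and 36.2 CPM with WM1119, without overlap. WT cells gave 34.1, 16.6 and 15.8 CPM with vehicle and 21.3, 32.9 and 36.3 CPM with WM1119, with overlap. The inhibitor difference was 0.68 in R183W cells (interval -0.01 to 1.36) and 0.44 in WT cells (interval -0.19 to 1.07). Between the lines it was -0.06 with vehicle (SE 0.29, edgeR adjusted p = 0.927) and 0.18 with WM1119 (SE 0.32, edgeR adjusted p = 0.781).

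SOCS3, the STAT3-induced inhibitor of IL6ST signalling, had the widest intervals of the 7 genes that passed the filter. R183W cells gave 9.73, 13.9 and 11.2 CPM with vehicle and 6.96 and 1.81 CPM with WM1119. WT cells gave 7.14, 14.7 and 31.0 CPM with vehicle and 21.1, 9.50 and 0.413 CPM with WM1119. The R183W groups did not overlap and the WT groups did. The last WT value is a single count, in library 3. The AP-1 subunit gene JUNB and the ligand gene CLCF1, both chosen after their values were seen, were also lowest of their group there, JUNB at 2.89 against 24.8 and 17.2 CPM and CLCF1 at 0.413 against 4.17 and 4.88 CPM. SOCS3, JUNB and CLCF1 were each lowest of their group in library 1 of the WT cells with vehicle too. JUNB measured 14.7 there against 26.7 and 25.8 CPM, and CLCF1 1.34 against 4.00 and 4.89 CPM.

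The genotype difference in SOCS3 was -0.62 with vehicle (SE 0.65, edgeR adjusted p = 0.580) and -1.28 with WM1119 (SE 0.87, edgeR adjusted p = 0.406). The inhibitor difference was -1.34 in R183W cells (interval -3.18 to 0.49) and -0.68 in WT cells (interval -2.11 to 0.74). Without library 3 of the WT cells with WM1119 the latter was -0.20. With no filter on low counts, edgeR called the genotype difference under WM1119 at an adjusted p of 0.0176. With no filter the inhibitor difference in R183W cells was -1.36 with an SE of 0.39, and fitted on only the R183W groups it was -1.33 with an SE of 0.40. Beside -1.34 the SE was 0.86, so the error depended on the fit. As an inhibitor comparison, this difference is given with no test.

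**Figure D2:**
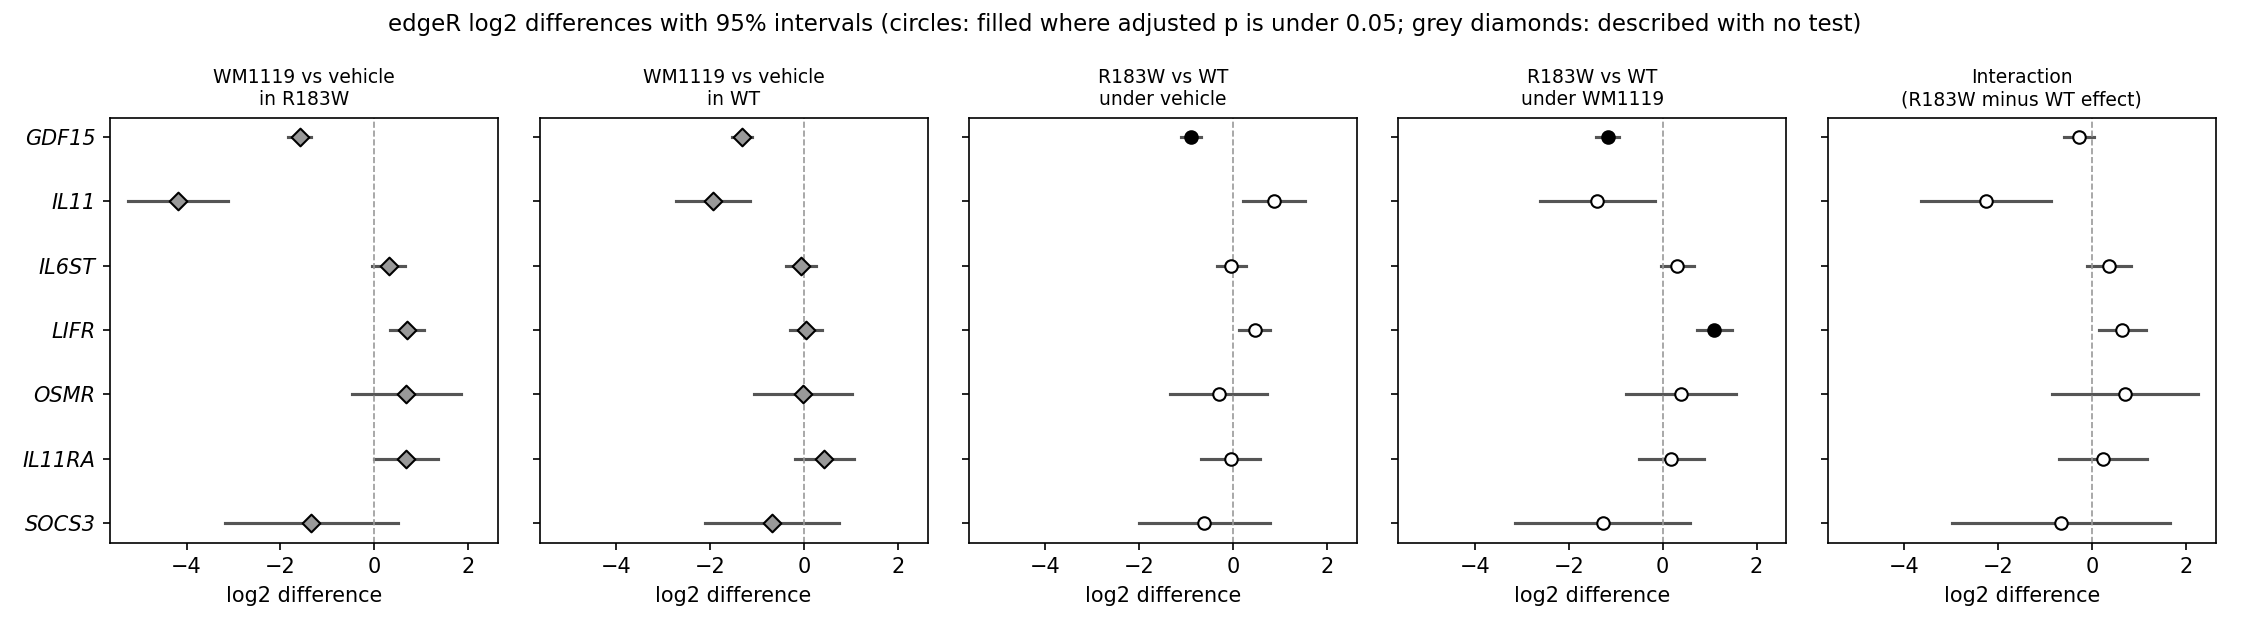
log2 differences (horizontal axis) of the 7 genes that passed the filter, with 95% intervals as bars, in the 5 comparisons. Circles are filled where the edgeR adjusted p was under 0.05, and grey diamonds mark comparisons described with no test. GDF15 lies at -0.89 and -1.17 in the genotype comparisons and LIFR at 1.10 under WM1119, while the widest bars belong to SOCS3.

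Counted over the 7 genes, the genotype comparisons stood as follows. With vehicle, 1 of 7 was called, GDF15, lower in R183W cells. Of the 13980 genes tested, 13% were called there, 6.82% higher and 6.17% lower. With WM1119, 2 of 7 were called, GDF15 lower and LIFR higher in R183W cells, against 8.56% of all genes, 4.64% higher and 3.92% lower. In the interaction 0 of 7 were called by edgeR, against 0.286% of all genes (0.093% higher and 0.193% lower), and DESeq2 and limma-voom also called 0. At an unadjusted p under 0.05, edgeR gave 2, IL11 lower and LIFR higher, where 5.2% of all genes were lower and 4.1% higher. The libraries of the 2 lines did not overlap for 3 of 7 genes with vehicle (37.8% of all genes did not) and for 3 of 7 with WM1119 (34.8% of all genes), and these shares lie near the background.

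The same counts are printed for the inhibitor comparisons, but GDF15 and IL11 were singled out on those values, so nothing is read from them. In R183W cells 3 of 7 passed the threshold, GDF15 and IL11 lower and LIFR higher, where 4.64% of all genes did, 1.99% higher and 2.65% lower. The 2 groups did not overlap for 6 of 7 genes, where 46.8% of all genes did not. In WT cells 2 of 7 passed, GDF15 and IL11, both lower, against 4.86% of all genes, 2.33% higher and 2.53% lower, and 2 of 7 did not overlap, against 22.3%. The median log2 difference of the 7 genes was 0.30 in R183W cells and -0.05 in WT cells, and that of all genes was -0.00107 and -0.00312.

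**Figure D3:**
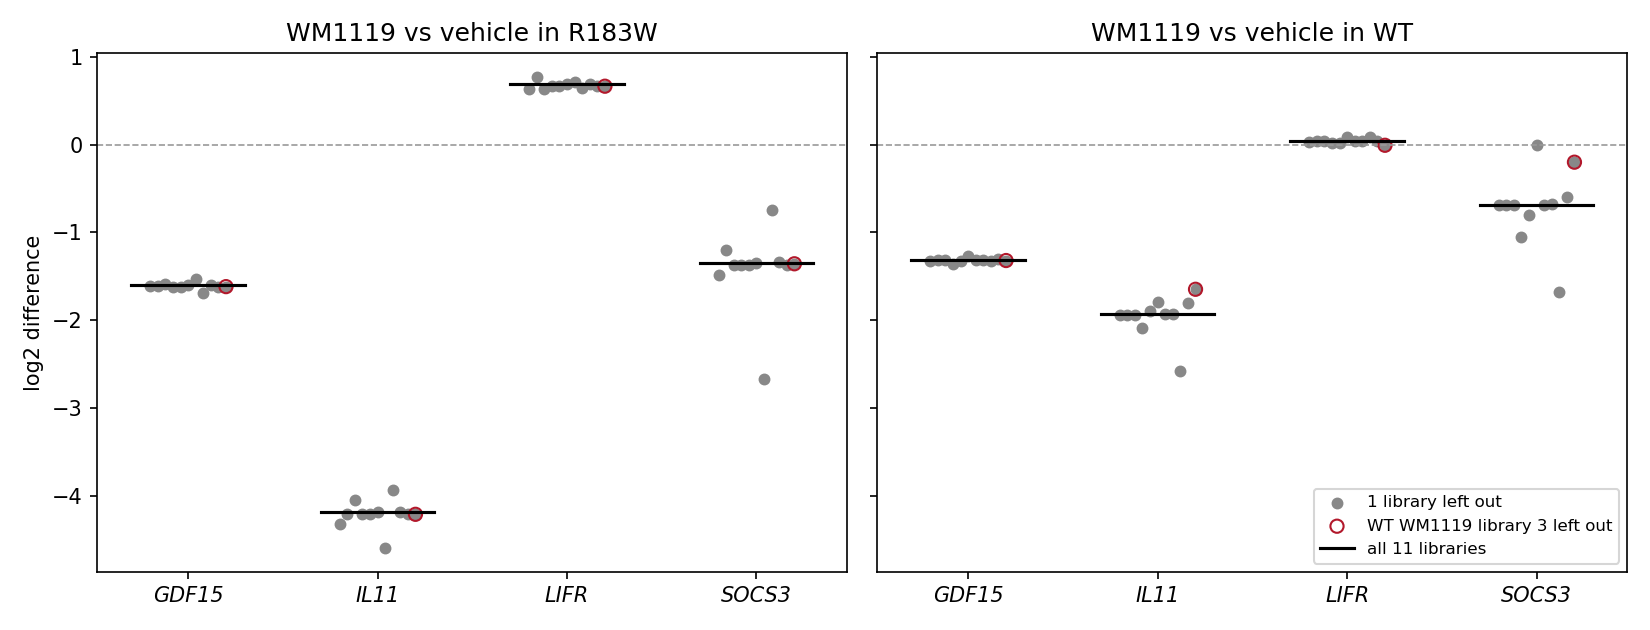
log2 difference of WM1119 against vehicle (vertical axis) for 4 genes in each line, recomputed with 1 library left out at a time (grey points) beside the value from all 11 libraries (black line). Red rings mark the fit without library 3 of the WT cells with WM1119. GDF15 stays between -1.69 and -1.53 in R183W cells and between -1.36 and -1.27 in WT cells, while SOCS3 spreads from -1.68 to 0.00 in WT cells.

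Per kilobase of merged exons (GENCODE 29), GDF15 stood far above the other genes in every group. Its group means were 543, 180, 1006 and 406 CPM per kilobase in R183W cells with vehicle, R183W cells with WM1119, WT cells with vehicle and WT cells with WM1119. IL11 stood at 8.36, 0.439, 4.55 and 1.11 CPM per kilobase in the same order. IL6ST lay between 6.03 and 7.54, IL11RA between 4.95 and 7.95, SOCS3 between 1.60 and 6.45, LIFR between 1.92 and 4.26, and OSMR between 0.588 and 0.941 CPM per kilobase.

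Among the 10 IL6-family ligands, 3 passed the filter on low counts. IL6, OSM, IL27 and IL31 had 0 counts in all 11 libraries, which allows a level of up to 0.495 to 1.24 CPM, depending on the library. CTF1 and CNTF group means were at most 0.0744 and 0.501 CPM. CLCF1, a cardiotrophin-like cytokine, lay between 0.844 and 3.41 CPM with no call. EBI3, the shared subunit of interleukin-27 and interleukin-35, was higher in WT cells with vehicle than in R183W cells with vehicle. It measured 3.12, 2.48 and 6.21 CPM against 0.660, 0.428 and 0.203 CPM (log2 difference -3.08, SE 0.76, edgeR adjusted p = 0.0169). This call was lost in 3 of 11 fits that left out 1 library: libraries 2 and 3 of the R183W cells and library 3 of the WT cells, all with vehicle.

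Of 8 IL6-family receptor genes, 7 passed the filter. CNTFR had 0 counts in every library. IL6R, which binds IL6 itself, lay between 22.9 and 30.3 CPM in group means with no call. IL31RA, the interleukin-31 receptor chain, had group means between 0.302 and 2.67 CPM, also with no call. IL27RA, the interleukin-27 receptor chain, rose with WM1119 in R183W cells from 31.0, 27.2 and 26.4 to 64.3 and 54.7 CPM (log2 difference 1.08, SE 0.21, edgeR adjusted p = 0.0105). The WT mean went from 26.3 to 31.9 CPM (log2 difference 0.27, SE 0.20, edgeR adjusted p = 0.459), and the interaction was 0.80 (SE 0.29, edgeR adjusted p = 0.381). IL27RA was therefore called in 1 line, and the lines were not shown to differ.

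With WM1119, R183W cells had more IL27RA than WT cells (0.90, SE 0.21, edgeR adjusted p = 0.0185). The IL27RA call between inhibitor and vehicle was lost in 4 of 11 fits that left out 1 library. They were those without library 2 or 3 of the R183W cells with vehicle or library 1 or 2 of the R183W cells with WM1119. The call between the lines was also lost without each of the R183W libraries with WM1119, and without library 1 of the WT cells with WM1119.

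Kinases, STATs and adaptors downstream were listed by 10 genes, of which 9 passed the filter. STAT3, the main transducer of IL6ST, was higher in R183W than in WT cells with vehicle, at 186, 182 and 189 against 124, 102 and 88.8 CPM (0.82, SE 0.21, edgeR adjusted p = 0.0203). That call was lost in 5 of 11 fits that left out 1 library. They were those without any 1 of the 3 R183W vehicle libraries or without library 2 or 3 of the WT vehicle libraries. JAK1, the kinase bound to IL6ST, fell with WM1119 in WT cells (-0.58, SE 0.13, edgeR adjusted p = 0.0239), and was lower in R183W than in WT cells with vehicle (-0.44, SE 0.13, edgeR adjusted p = 0.0381). The first was lost without library 2 or 3 of the WT cells with vehicle or library 2 with WM1119, and the second in 8 of the 11 fits. SHC1, an adaptor that links receptors to the RAS pathway, was higher in R183W cells with vehicle (0.80, SE 0.15, edgeR adjusted p = 0.00351) and with WM1119 (0.88, SE 0.17, edgeR adjusted p = 0.00546), the latter lost without library 1 of the R183W cells with WM1119.

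The 12 SOCS and PIAS inhibitor genes gave 9 that passed the filter, and SOCS7 was not analysed here. With WM1119 edgeR called 0 of the 9 in either line. At an unadjusted p under 0.05 it gave 0 in R183W cells and 1, higher, in WT cells, where 11.4% of all genes were. DESeq2 and limma-voom called 0. The 0 of edgeR in R183W cells depended on the fit through SOCS3, which is among the 9 and is given with no test. Its SE there was 0.86 with the filter on low counts and 0.39 without it. PIAS3, an inhibitor of STAT3 binding to DNA, was higher in R183W than in WT cells with vehicle (0.96, SE 0.18, edgeR adjusted p = 0.00341) and with WM1119 (0.80, SE 0.20, edgeR adjusted p = 0.0254), the latter lost in 4 of 11 fits, without any WM1119 library but library 3 of the WT cells. Of 18 genes listed as STAT3 targets, all tested, 1 rose and 1 fell with WM1119 in R183W cells (1.99% and 2.65% of all genes). They were CEBPD, a transcription factor of the acute phase response (1.11, SE 0.21, edgeR adjusted p = 0.00749) and BCL2L1, a survival gene (-1.71, SE 0.28, edgeR adjusted p = 0.00390).

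The CEBPD call was lost when either R183W library with WM1119 was left out, and that of BCL2L1 without library 2 of them. In WT cells 2 of the 18 STAT3 targets fell with WM1119, HIF1A, the hypoxia factor (-0.72, SE 0.13, edgeR adjusted p = 0.00792) and SERPINA3, an acute phase protease inhibitor (-1.40, SE 0.35, edgeR adjusted p = 0.0362), the latter in 3 of 11 fits that left out 1 library. Of all genes, 2.53% fell with WM1119 in WT cells. At an unadjusted p under 0.05 in edgeR, 4 of the 18 were lower and 1 higher with WM1119 in R183W cells. Of all genes, 9.98% were lower and 9.61% higher there. In WT cells 7 were lower and 1 higher by that measure, where 9.94% and 11.4% of all genes were. The median log2 difference of the 18 was -0.37 in R183W cells and -0.44 in WT cells. Without library 3 of the WT cells with WM1119, 5 and 4 of the 18 were called, where 11.5% and 6.06% of all genes were. Between the lines with vehicle, 1 of the 18 was higher and 2 were lower in R183W cells (6.82% and 6.17% of all genes). With WM1119, 1 was higher and 0 lower (4.64% and 3.92% of all genes).

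**Figure D4:**
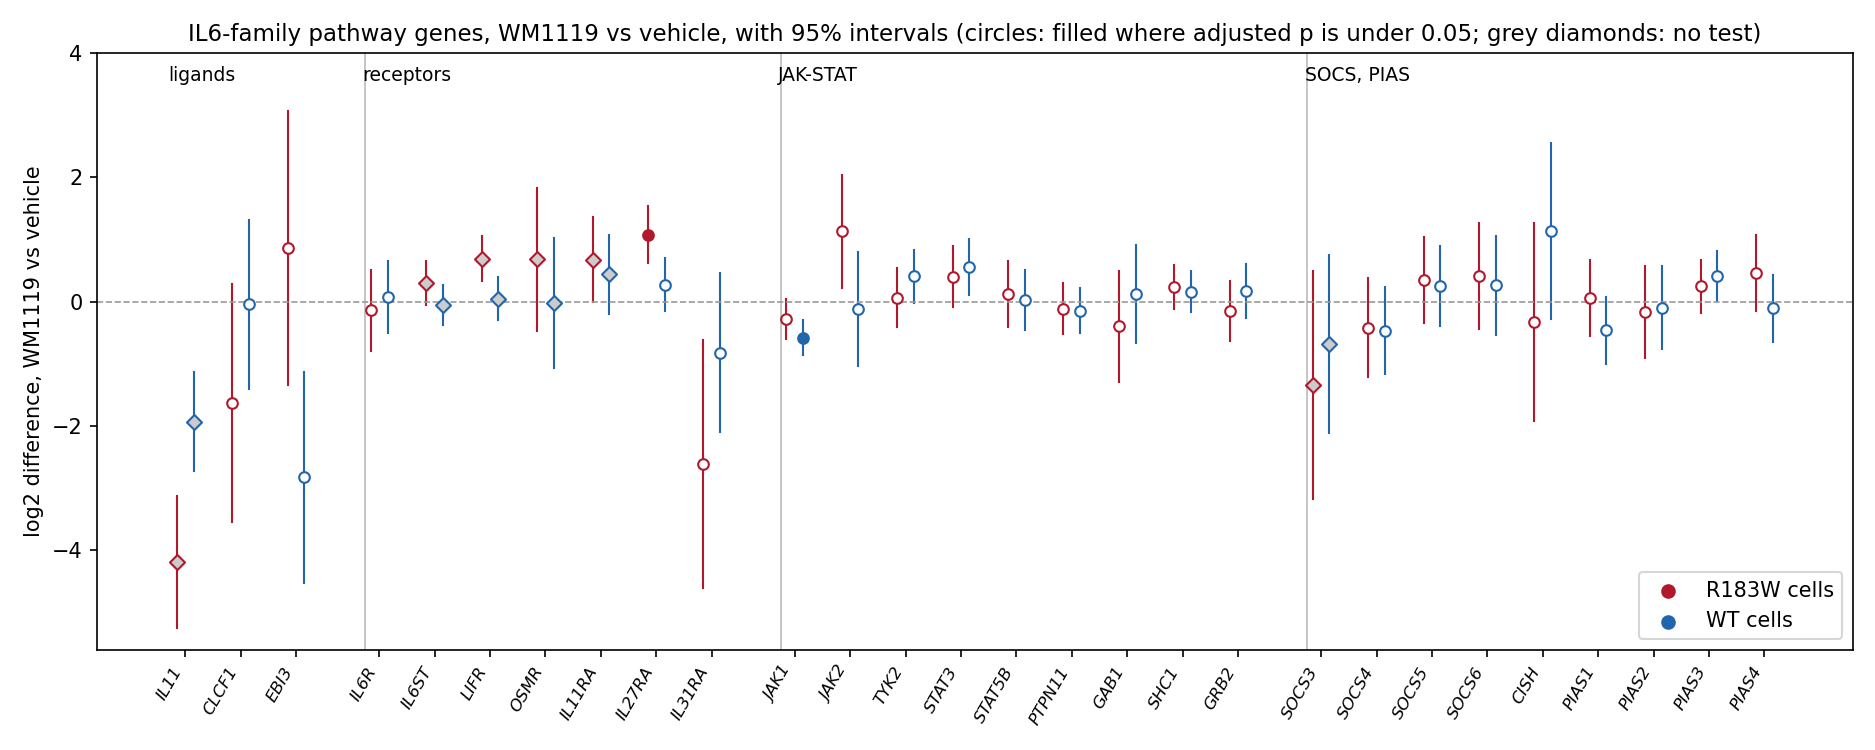
log2 difference of WM1119 against vehicle (vertical axis) for the tested ligands, receptors, JAK-STAT transducers and SOCS and PIAS inhibitors, in R183W (red) and WT cells (blue), with 95% intervals. Circles are filled where the edgeR adjusted p was under 0.05, and grey diamonds are the genes described with no test. IL27RA stands at 1.08 in R183W cells and at 0.27 in WT cells.

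Upstream of GDF15, 9 stress-responsive transcription factors were all tested, and edgeR called 0 of them with WM1119 in either line. At an unadjusted p under 0.05, 4 were lower in R183W cells and 1 in WT cells, where 9.98% and 9.94% of all genes were. In R183W cells DESeq2 called 2 and limma-voom 1, and without library 3 of the WT cells with WM1119 edgeR called 3. In WT cells DESeq2 and limma-voom called 0. EGR1, an immediate early factor, was higher in R183W than in WT cells, at 90.1, 110 and 101 against 16.7, 27.1 and 27.8 CPM with vehicle (log2 difference 2.07, SE 0.22, edgeR adjusted p = 3.21e-05). It was the 1 of the 9 called between the lines with vehicle and with WM1119, where its log2 difference was 1.21 (SE 0.24, edgeR adjusted p = 0.00710), lost without library 2 of the R183W cells with WM1119.

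GDF15 is itself a target of the integrated stress response and of p53, and other targets of both were listed. These lists and those that follow were chosen with earlier results of these data known. Counts from them are a description, and a link to GDF15 or IL11 was not tested. Of 12 integrated stress response targets, 3 fell in R183W cells and 0 rose, where 2.65% of all genes fell. At an unadjusted p under 0.05, 9 of the 12 were lower, where 9.98% of all genes were. The 3 were ASNS, asparagine synthetase (-1.08, SE 0.12, edgeR adjusted p = 0.000278), NUPR1, a stress-induced nuclear protein (-1.13, SE 0.18, edgeR adjusted p = 0.00287), and TRIB3, a pseudokinase (-0.81, SE 0.22, edgeR adjusted p = 0.0471). Without library 3 of the WT cells with WM1119 the count was 8 of 12, and the share of all genes called in either direction went from 4.64% to 11.5%. In WT cells 1 of the 12 fell, ASNS (-0.43, SE 0.11, edgeR adjusted p = 0.0354), where 2.53% of all genes fell. DESeq2 called 4 and 3 in the 2 lines. The TRIB3 call and the WT call of ASNS each held in 2 of 11 fits that left out 1 library, and that of NUPR1 was lost without library 1 of the R183W cells with WM1119.

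Between the lines with vehicle, 2 of the 12 integrated stress response targets were lower and 1 was higher in R183W cells (6.17% and 6.82% of all genes). With WM1119, 3 were lower and 0 higher (3.92% and 4.64% of all genes). NUPR1 was lower in R183W than in WT cells with vehicle, at means of 61.2 ± 7.20 against 130 ± 10.8 CPM (-1.09, SE 0.14, edgeR adjusted p = 0.000234). With WM1119 its means were 28.1 ± 1.71 and 114 ± 15.6 CPM (-2.01, SE 0.18, edgeR adjusted p = 1.22e-05). Both NUPR1 calls held in all 11 fits that left out 1 library. SLC7A11, a cystine transporter, was also lower with vehicle (-0.56, SE 0.15, edgeR adjusted p = 0.0281, held in 5 of 11 fits) and with WM1119 (-1.16, SE 0.18, edgeR adjusted p = 0.00122, held in 11 of 11). ASNS was lower with WM1119 (-0.42, SE 0.12, edgeR adjusted p = 0.0450, held in 4 of 11 fits). CHAC1, a glutathione-degrading enzyme, was higher with vehicle (0.96, SE 0.24, edgeR adjusted p = 0.0179, held in 8 of 11 fits).

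Of 20 p53 targets, 19 were tested, and 3 fell with WM1119 in R183W cells and 2 in WT cells. Of all genes, 2.65% and 2.53% fell. PLK2, a polo-like kinase, fell by 2.11 (SE 0.25, edgeR adjusted p = 0.000395) and 2.21 log2 units (SE 0.21, edgeR adjusted p = 5.74e-05). GADD45A, a growth arrest gene, fell by 1.60 (SE 0.20, edgeR adjusted p = 0.000594) and 1.03 (SE 0.18, edgeR adjusted p = 0.00570). AEN, an exonuclease gene, fell by 0.92 in R183W cells (SE 0.16, edgeR adjusted p = 0.00584). The AEN call was lost without library 1 of the R183W cells with WM1119. The median of the 19 was -0.05 in R183W cells and 0.20 in WT cells. Between the lines with vehicle, 2 of the 19 were higher and 4 lower in R183W cells, where 6.82% and 6.17% of all genes were. With WM1119 edgeR called 0, as did DESeq2 and limma-voom. At an unadjusted p under 0.05 in edgeR, 1 was lower, where 11.8% of all genes were.

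AP-1, whose motif lies in the IL11 window shown above, is built from FOS and JUN proteins. Of 7 subunit genes, 6 were tested, and 3 fell with WM1119 in R183W cells and 2 in WT cells. Of all genes, 2.65% and 2.53% fell. FOSL1 measured 99.0, 104 and 95.5 CPM in R183W cells with vehicle and 25.7 and 27.8 CPM with WM1119 (-1.90, SE 0.18, edgeR adjusted p = 4.25e-05). FOSL1 in WT cells measured 66.0, 76.2 and 81.7 CPM with vehicle and 16.3, 15.9 and 12.0 CPM with WM1119 (-2.32, SE 0.16, edgeR adjusted p = 4.54e-06). JUN fell in R183W cells (-1.07, SE 0.15, edgeR adjusted p = 0.00141) and in WT cells (-0.90, SE 0.13, edgeR adjusted p = 0.00176). FOSL2 fell in R183W cells (-0.90, SE 0.23, edgeR adjusted p = 0.0377), a call lost in 6 of 11 fits, those without any 1 of the 5 R183W libraries or library 2 of the WT cells with vehicle. Between the lines, FOSL2 was lower in R183W cells with vehicle (-0.98, SE 0.18, edgeR adjusted p = 0.00319) and with WM1119 (-1.25, SE 0.23, edgeR adjusted p = 0.00430), the latter lost without library 1 of the R183W cells with WM1119. FOSL1 was higher in R183W cells with WM1119 (0.84, SE 0.18, edgeR adjusted p = 0.0119), a call lost when either R183W library with WM1119 was left out.

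TEAD factors, their co-activators YAP and TAZ and 3 of their targets made a list of 9 tested genes. With WM1119, 3 fell and 0 rose in R183W cells, where 2.65% and 1.99% of all genes did. In WT cells 1 fell and 1 rose, where 2.53% and 2.33% did. At an unadjusted p under 0.05 in edgeR, 4 of the 9 were lower and 1 higher in R183W cells. Of all genes, 9.98% were lower and 9.61% higher there. In WT cells 5 were lower and 1 higher by that measure, where 9.94% and 11.4% of all genes were. ANKRD1, a YAP target, fell in R183W cells (-4.05, SE 0.18, edgeR adjusted p = 4.32e-08) and in WT cells (-2.93, SE 0.15, edgeR adjusted p = 2.23e-07). In R183W cells CCN2 (-2.60, SE 0.68, edgeR adjusted p = 0.0453) and WWTR1, which encodes TAZ, also fell (-0.79, SE 0.19, edgeR adjusted p = 0.0277). In WT cells TEAD2 rose by 0.74 (SE 0.20, edgeR adjusted p = 0.0431), a call that held in 3 of 11 fits and was lost without library 3 of that group. The CCN2 and WWTR1 calls held in 4 and 6 of 11 fits and were lost without any 1 of the 5 R183W libraries. Between the lines with vehicle, ANKRD1 was higher in R183W cells (0.82, SE 0.13, edgeR adjusted p = 0.000806) and TEAD4 lower (-0.90, SE 0.20, edgeR adjusted p = 0.0106), the latter lost without library 2 of the WT cells with vehicle.

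TGF-beta is a textbook inducer of IL11, and of its 11 listed pathway genes 10 were tested. With WM1119 edgeR called 0 of the 10 in both lines. At an unadjusted p under 0.05, 2 were lower in R183W cells and 3 in WT cells, where 9.98% and 9.94% of all genes were. DESeq2 called 2 and 1, and limma-voom 0 and 1. Between the lines with vehicle, 1 of the 10 was higher and 2 were lower in R183W cells (6.82% and 6.17% of all genes). With WM1119, 1 was higher and 1 lower (4.64% and 3.92% of all genes). TGFBR3, a co-receptor, was higher in R183W cells with vehicle (1.46, SE 0.23, edgeR adjusted p = 0.000977) and with WM1119 (2.09, SE 0.27, edgeR adjusted p = 0.000254). TGFB2, a ligand, was lower in R183W cells with vehicle (-0.65, SE 0.15, edgeR adjusted p = 0.0114) and with WM1119 (-0.69, SE 0.17, edgeR adjusted p = 0.0258), each in 7 of 11 fits that left out 1 library. TGFBR2, the type II receptor, was lower with vehicle (-0.98, SE 0.24, edgeR adjusted p = 0.0157), in 9 of 11 fits.

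Of 5 genes for the GDF15 receptor and processing enzymes, 2 were tested. GFRAL had 0 counts in all 11 libraries. FURIN, a protease that matures TGF-beta family precursors, fell in WT cells with WM1119 from a mean of 62.4 to 41.4 CPM (-0.60, SE 0.15, edgeR adjusted p = 0.0341). The FURIN call held in 2 of 11 fits, those without library 1 of the R183W cells with vehicle or library 3 of the WT cells with WM1119. Of 15 other inflammatory cytokine genes, 4 were tested, and edgeR called 0 with WM1119 in both lines. At an unadjusted p under 0.05, 1 was lower in each, where 9.98% and 9.94% of all genes were. In WT cells DESeq2 called 1. IL18, a cytokine of the interleukin-1 family, was lower in R183W than in WT cells with vehicle (-1.40, SE 0.23, edgeR adjusted p = 0.00153) and with WM1119 (-1.25, SE 0.28, edgeR adjusted p = 0.0146), the latter lost when either R183W library with WM1119 was left out.

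The genes whose levels followed GDF15 and IL11 most closely were ranked by Pearson's r of log2 CPM over the 11 libraries, among 9963 protein-coding genes with a mean of at least 5 CPM. The libraries fall into 4 groups, so these r values mostly reflect group means and carry no test. DUSP5, a phosphatase that acts on ERK, came first for GDF15 at r = 0.989. Its group means were 192 ± 2.09, 76.9 ± 1.92, 338 ± 17.0 and 135 ± 3.79 CPM in R183W cells with vehicle and WM1119 and WT cells with vehicle and WM1119 (SD, n = 3, 2, 3 and 3). That is the same order of groups as GDF15. KRT15, a keratin, followed at 0.979, then CPM, the carboxypeptidase M gene, at 0.975, EXPH5 at 0.970 and STMN3 at 0.963.

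For IL11 the 5 closest were RUSC2 at 0.962, INHBB at 0.961, AJUBA at 0.959, ANKRD1 at 0.949 and HMGA2 at 0.947. INHBB encodes the beta B subunit of activins and inhibins. It measured 13.7, 20.3 and 17.2 CPM in R183W cells with vehicle and 3.12 and 4.83 CPM with WM1119. In WT cells it measured 11.4, 13.3 and 14.9 CPM with vehicle and 9.23, 6.42 and 3.30 CPM with WM1119. The R183W cells with vehicle and with WM1119 held the highest and lowest means, as for IL11.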

How the data were processed

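RNA was measured by sequencing in 11 libraries of HEC50B cells. The authors deposited a table of counts per Ensembl gene. STAR, RSEM and hg19 appear in the submitters' processing notes without version or role. RSEM estimates need not be whole, but every value in the deposited count table was, so no rounding was needed; whether the authors rounded them is not stated. The labels call the molecule polyA RNA and name a ScriptSeq Complete Gold kit.

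Symbols were matched for 51959 of 57736 gene rows, and unmatched rows held 1.01% of counts. The filter on low counts was filterByExpr and scaling was by TMM. edgeR 4.0.16 in R 4.3.3 fitted 1 quasi-likelihood model with 4 group means to all 11 libraries. A gene was called at a Benjamini-Hochberg adjusted p under 0.05 over 13980 genes, two-sided. The biological coefficient of variation was 19.6%. CPM are relative to the counts in tested genes times the TMM factor. SE are the log2 difference over the square root of F. The fit was tested on simulated data. Alternatives used DESeq2 1.42.0, limma 3.58.1 (voom), other scalings, no filter, only the groups compared, a replicate block and each library left out.

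The genes named were drawn from the 8 members, up to 4 called genes with the largest differences per list and comparison, every ligand and receptor, and the 5 genes most correlated with GDF15 and with IL11 (log2 CPM with a prior count of 2). Members and lists were chosen with earlier results of these data known. Some genes of the pathway lists are not reported here.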

Additional observations from a re-analysis of the deposited data

Results flagged for a closer look

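COL1A1, the collagen gene that makes up most of the fibroblast list, moved in opposite directions in the 2 lines, with no overlap between vehicle and WM1119 libraries in either. It went from 724, 854 and 927 to 565 and 568 CPM in R183W cells and from 580, 609 and 657 to 863, 819 and 850 CPM in WT cells (interaction -1.02, SE 0.17, edgeR adjusted p = 0.0252), a call that held in 3 of 11 fits that left out 1 library. FOXA2, an endometrial gland factor, also had opposite signs without overlap, but neither inhibitor difference was called. They were -0.22 in R183W cells (SE 0.16, edgeR adjusted p = 0.477) and 0.41 in WT cells (SE 0.15, edgeR adjusted p = 0.134). In R183W cells the lowest vehicle value was 126.6 CPM and the highest WM1119 value 125.5 CPM. The FOXA2 interaction of -0.63 (SE 0.22) did not pass the threshold (edgeR adjusted p = 0.346).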

How the results depend on the processing

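Of the 8 members, LIF could not be tested at this depth, and IL11 rested on 3 to 23 counts per library with WM1119. Where a left-out library leaves R183W cells with WM1119 at 1 library, that library is assumed to vary like the other groups. Fitting only the groups compared was not run for the interaction, and IL11 did not pass the filter when only the WM1119 groups were fitted.

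Fitting only the groups compared called 5 members between WM1119 and vehicle in R183W cells, 1 in WT cells and 2 between the lines with vehicle, in place of 3, 2 and 1. Member counts between WM1119 and vehicle in this section are a description, and nothing is read from them. No filter on low counts called 2 between the lines with vehicle and 1 in the interaction, IL11 in both added calls. limma-voom called 2 between the lines with vehicle and turned the IL11RA difference there to 0.052. Leaving out 1 library gave 2 to 3 members called in R183W cells, 1 to 2 in WT cells, 1 to 3 between the lines with vehicle, 2 to 3 with WM1119 and 0 to 1 in the interaction. All 3 upper values between the lines and in the interaction came without library 3 of the WT cells with WM1119.

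Directions that turned when 1 library was left out all belonged to differences that were not called. With vehicle, the difference between the lines ran from -0.25 to 0.39 for IL11RA, from -0.74 to 0.0603 for OSMR and from -0.97 to 0.0737 for SOCS3. With WM1119 it ran from -0.0257 to 0.31 for IL11RA and from -0.0173 to 0.89 for OSMR. The interaction ran from -0.21 to 0.43 for IL11RA and from -1.99 to 0.33 for SOCS3. The cause was not tested.

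Replicate numbers showed no pairing of the libraries. Correlated deviations over 0.1 were found in 2 of 15 same-numbered pairs (range -0.39 to 0.14). They were found in 5 of 30 pairs of different number (range -0.16 to 0.41). The highest, 0.41, was between library 1 of the WT cells with vehicle and library 3 of the WT cells with WM1119. Deviations within a group cancel, so these pairs are not independent. With a replicate block the members called were 2, 2, 1, 2 and 0 in the 5 comparisons.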
